A study of Komagataella phaffii CBS 7435 with 54 samples.

Results

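In the slowly growing retentostat cultures of Pichia pastoris (Komagataella phaffii), 116 transcripts had fallen at least 2-fold by day 1 relative to the fastest chemostat. They were chosen by their measured values: the mean log2 ratio of culture over reference pool on day 1, minus that in the chemostat at a dilution rate of 0.1 per hour, had to be -1 or lower. Of the 5077 array probes that carry a PAS_ locus tag, 116 met this limit, each for a different tag, out of 5371 probes on the array. The day 1 and chemostat 0.1 values are therefore given as a description only, and tests were run between other conditions.

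The retentostat cultures were sampled after 21, 65, 116, 380 and 545 h, that is on days 1, 3 and 5 and, later, days 16 and 23. The chemostats were run in steady state at dilution rates of 0.025, 0.05, 0.075 and 0.1 per hour. Each of the 9 conditions had 3 numbered replicates, and each replicate was hybridized in both dye orientations against one pool of P. pastoris RNA from many growth conditions, which gave 54 arrays on 9 slides. All cultures were fed glucose as the limiting nutrient and carried the same disruption of FLO8, a regulator of flocculation and filamentous growth, made with a KanMX marker in CBS 7435. All descended from a single-colony isolate, and the sample labels name only the parent strain CBS 7435. The deletion was not checked, since no table read here gives the name FLO8 beside a probe. The retentostats stood in other bioreactors than the chemostats, held more biomass and received a feed of declining glucose concentration. Differences between the systems therefore include those of equipment, cell density, feed and time. The methods describe duplicate cultures, fewer than the 3 numbered replicates, so some replicates of a condition must share a culture. SEs and p values measure only the spread between such replicates, pooled over all 9 conditions.

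A retentostat is a chemostat in which the cells are held back by a filter while spent medium leaves. The glucose supply is then shared by ever more cells, and growth slows until nearly all glucose is spent on maintenance. In this study the glucose concentration of the feed was also lowered over the retentostat phase. In yeasts, the transcripts needed for building new cells are generally known to decline as growth slows. Many genes of stress protection and of alternative carbon sources are known to rise. For these retentostat cultures, however, the paper reports no marked fall in the transcripts of protein synthesis. Neither the array files nor the gene table of strain GS115 (assembly ASM2700v1), in which 112 of the 116 tags were found, gives a name or product, so the genes are called by their tags and no function is assigned to any of them.

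By the scanner software's marks, 89.9% to 98.4% of the spots of an array exceeded background clearly in the culture's dye. The median culture signal by condition lay between 2112 and 2729 in the retentostats and between 4008 and 4840 in the chemostats. The ratio to the pool was centred within each array, so all differences are relative to the other transcripts, and the median of all probes moved by at most 0.06 on the log2 scale between the chemostat 0.1 and any other condition. Replicate 3 of day 3 stood apart: its dye orientations differed by a median of 0.36 on the log2 scale over the 116 probes, against 0.11 to 0.24 in the other 26 replicates, and 8 spots of its dye-swap array had a local background above 1000. Values without it are given where they matter. In bulk RNA, fewer cells with a transcript and less of it per cell cannot be told apart.

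The falls on day 1 were mostly small, with a few large ones. Over the 116 transcripts the difference from the chemostat 0.1 had a median of -1.16 and quartiles of -1.37 and -1.08 on the log2 scale, which is 2.23-fold lower at the median. In the model fitted to all probes, all 116 were also called lower with an adjusted p below 0.05 and over 2-fold, beside 2.22% of all probes, but the rule used this contrast and nothing is read from it. The lowest was PAS_chr2-2_0113, with log2 ratios to the pool of -2.70, -3.05 and -2.89 on day 1, against 0.09, 0.04 and 0.08 in the chemostat 0.1. Its difference of -2.95 was followed by PAS_chr3_0516 with -2.74 and PAS_chr4_0307 with -2.71. The differences of PAS_chr3_0890, PAS_chr3_0876 and PAS_chr1-3_0052 were -2.46, -2.27 and -2.24. The next 6 in rank, PAS_chr1-3_0229, PAS_c034_0013, PAS_chr3_0284, PAS_chr1-4_0389, PAS_chr2-1_0580 and PAS_chr2-2_0064, lay between -1.90 and -1.70. Few transcripts thus fell by more than 2 on this scale, and most stood close to the limit. Just inside it were PAS_chr4_0610, PAS_chr3_1002 and PAS_chr2-1_0270 with -1.006, -1.001 and -1.0005, and just outside it PAS_chr2-1_0186, PAS_chr1-4_0634 and PAS_chr4_0150 with -0.997, -0.9945 and -0.994, so the limit separates transcripts that hardly differ.

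**Figure D1:**
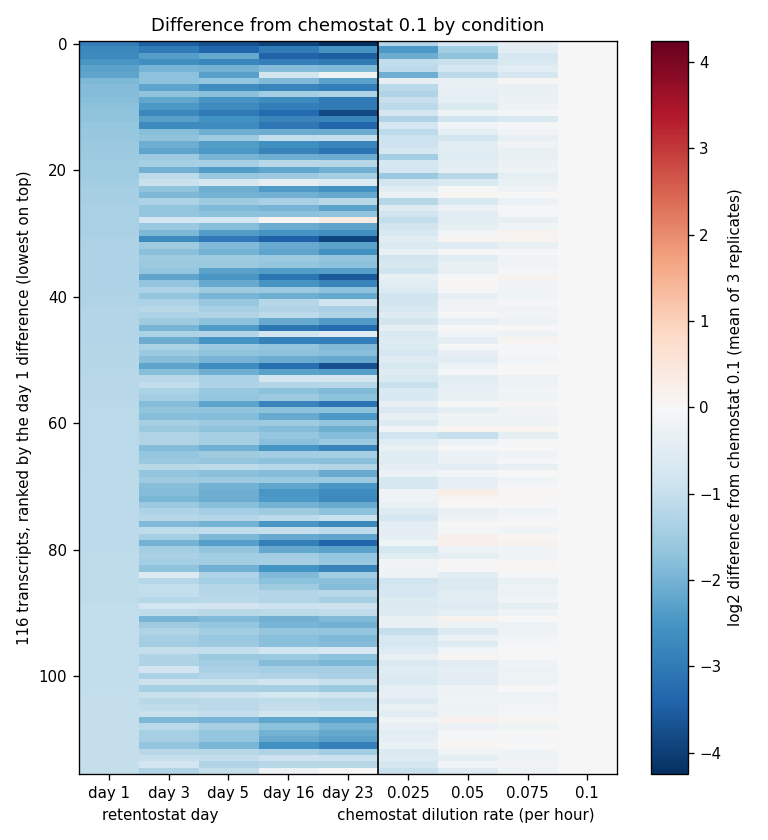
The log2 difference from the chemostat 0.1 mean (colour, mean of 3 replicates) for the 116 transcripts (rows, lowest day 1 difference on top) in the 5 retentostat days and the 4 chemostats (columns). Most rows darken after day 1, down to -4.25 on day 23, while a few turn pale or red again, up to 0.36.

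Across the other conditions the same transcripts formed a graded series. The differences below share the chemostat 0.1 samples that the rule used, so they are set side by side without a test. In the chemostats the median over the 116 was -0.60, -0.31 and -0.15 at 0.025, 0.05 and 0.075 per hour. In the retentostats it stood at -1.16 after 21 h, -1.52 after 65 h, -1.65 after 116 h, -1.78 after 380 h and -1.87 after 545 h. The medians of single replicates within a condition had SDs of 0.01 to 0.09 (n = 3). The medians thus went down with each lower dilution rate and each later day, and the spread between transcripts widened: on day 23 the differences ran from -4.25 to 0.36. Over all probes the medians of the same conditions lay between 0.01 and 0.06.

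The day 1 difference is the sum of a step from the chemostat 0.1 to the chemostat 0.025 and a step from there to day 1. The rule used this sum, so the sizes of the steps are a description only. The second step also crosses the bioreactor systems. Their medians were similar. For the chemostat step the median difference was -0.60, with a range from -2.43 to -0.13. For day 1 minus the chemostat 0.025 it was -0.62, with a range from -1.70 to 0.07. The chemostat step was the larger one for 60 of the 116 transcripts. After day 1 the paths parted, and day 23 minus day 1 ran from -2.57 to 2.03 with a median of -0.66. On day 1, 3 of the 116 were above the pool and on day 23, 2 were, against 86 in the chemostat 0.1. The rule used day 1 and the chemostat 0.1, so a drop between them was built in. Probes above the pool were not counted over the whole array.

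**Figure D2:**
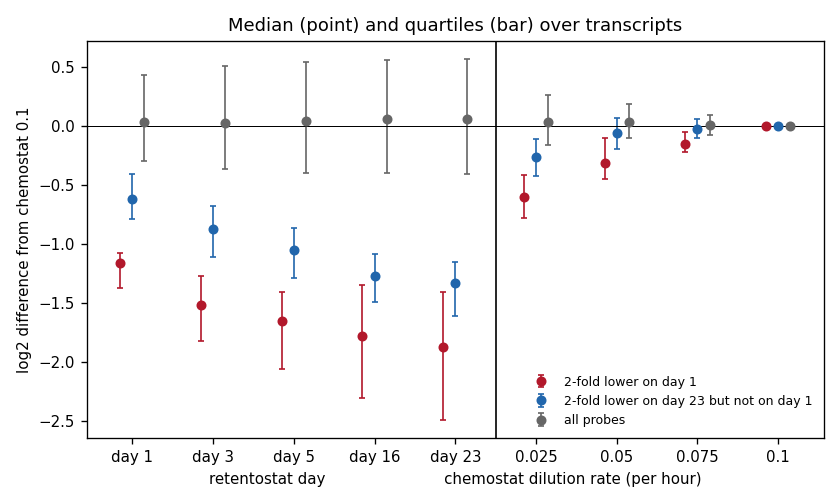
Medians (points) and quartiles (bars) over transcripts of the log2 difference from the chemostat 0.1, for the 116 transcripts 2-fold lower on day 1 (red), 338 transcripts 2-fold lower on day 23 but not on day 1 (blue) and all 5371 probes (grey). The red medians run from -1.16 on day 1 to -1.87 on day 23, and the medians of all probes stay between 0.01 and 0.06.

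The first test asked whether the transcripts already differed between slow chemostats, using none of the samples of the rule. All 116 were lower in the chemostat 0.025 than in the chemostat 0.075, beside 2425 of all 5371 probes. The median difference of the 116 was -0.46, against 0.03 over all probes. By limma with Benjamini-Hochberg adjustment over all probes, 110 of the 116 were lower at an adjusted p below 0.05, beside 23.7% of all probes, and 0 were higher, beside 33.7%. Few changes were large. Only 5 were lower by more than 2-fold, and these were all the probes so called on the array, 0.0931% of it, while 0 of the 116 were among the 0.335% called higher over 2-fold. The remaining 6 transcripts had differences between -0.27 and -0.07. A pair of slides held arrays of both chemostats, and within each slide all 116 were lower, with medians of -0.50 and -0.46. Over all probes on these slides, 45.2% and 45.5% were lower, with medians of 0.033 and 0.028.

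The 5 transcripts were PAS_chr3_0516, PAS_chr4_0307, PAS_chr1-3_0052, PAS_chr3_0517 and PAS_chr4_0265, the last named after its values were seen. PAS_chr3_0516 had log2 ratios to the pool of -1.40, -1.39 and -1.42 in the chemostat 0.025, against 0.57, 0.53 and 0.61 in the chemostat 0.075. The groups were far apart and the replicates nearly equal, a difference of -1.97 ± 0.14 (SE, n = 3 each, limma adjusted p = 1.39e-10), or 3.93-fold. This SE rests on the spread over all 9 conditions. The SD of this transcript was 0.02 in the chemostat 0.025 and 0.04 in the chemostat 0.075, but 0.50 on day 3. PAS_chr4_0307 had -3.81, -3.80 and -3.73 in the chemostat 0.025, against -2.37, -2.29 and -2.44 in the chemostat 0.075. Its groups did not overlap either, and the difference was -1.42 ± 0.21 (limma adjusted p = 5.98e-06). Overlap was not counted over all probes, so its absence sets neither transcript apart. PAS_chr1-3_0052 had -4.18, -4.05 and -3.84 in the chemostat 0.025, against -2.74, -2.39 and -2.89 in the chemostat 0.075, a difference of -1.35 ± 0.25 (limma adjusted p = 6.94e-05). PAS_chr3_0517 and PAS_chr4_0265 had differences of -1.203 and -1.14. All 5 were far below the median of the group in this comparison, which the 2-fold call that picked them made certain.

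The second test compared day 3 with the chemostat 0.025, which share no sample with the rule but share the chemostat 0.025 samples with the first test. It crosses the bioreactor systems and no slide held arrays of both conditions. The median difference of the 116 transcripts was -0.81, against -0.01 over all probes. Of the 116, 113 were lower, beside 2726 of all 5371 probes. At an adjusted p below 0.05, 106 were lower, beside 34.9% of all probes, and 2 were higher, beside 35.5%. Over 2-fold, 47 were lower, beside 1.62% of all probes, and 0 were higher, beside 5.21%. The culture signals of the retentostats were lower than those of the chemostats, as given above, and their part in this result was not tested. With slide as a term in a fit of single arrays the count was 45, and without background correction it was 52.

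The largest falls on day 3 were those of PAS_chr2-2_0200, PAS_chr2-2_0113 and PAS_chr2-2_0064. PAS_chr2-2_0200 had log2 ratios of -1.85, -1.79 and -1.66 on day 3, against 0.51, 0.40 and 0.57 in the chemostat 0.025. The change was far outside the spread of the replicates, at -2.26 ± 0.07 (SE, n = 3 each, limma adjusted p = 1.31e-17), or 4.80-fold. This transcript had shown little response in the faster chemostats, with differences from the chemostat 0.1 of 0.11 at 0.05 and 0.10 at 0.075 per hour. PAS_chr2-2_0113 had -3.60, -3.21 and -3.35 on day 3, against -1.11, -1.28 and -1.17 in the chemostat 0.025, a difference of -2.20 ± 0.11 (limma adjusted p = 1.71e-14). PAS_chr2-2_0064 had -1.91, -1.71 and -1.62 on day 3, against 0.42, 0.17 and 0.21 in the chemostat 0.025, a difference of -2.01 ± 0.11 (limma adjusted p = 1.26e-13). In none of these 3 did the groups overlap, which was not counted over all probes.

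Other named transcripts changed less at this step. PAS_chr4_0307 had -4.64, -3.65 and -3.68 on day 3, against -3.81, -3.80 and -3.73 in the chemostat 0.025, so the groups overlapped (-0.21 ± 0.21, limma adjusted p = 0.382). Single day 3 replicates set this value, which was 0.12 without replicate 1 (limma adjusted p = 0.59), -0.38 without replicate 2 (limma adjusted p = 0.145) and -0.37 without replicate 3 (limma adjusted p = 0.157). PAS_chr3_0516 was lower by 0.54 on the log2 scale (limma adjusted p = 0.00142), although its day 3 replicates spread over -2.46, -1.89 and -1.47. Without replicate 1 of day 3 the difference was -0.28 (limma adjusted p = 0.0167). PAS_chr3_0876, also among the lowest on day 1, had -2.21, -2.27 and -2.24 on day 3, against -1.34, -1.40 and -1.40 in the chemostat 0.025, a difference of -0.86 ± 0.06 (limma adjusted p = 1.33e-11). The 2 transcripts called higher were PAS_chr3_0517 and PAS_chr1-3_0004, with differences of 0.46 and 0.21. PAS_chr3_0517 was well above background on 2 of its 6 day 3 arrays, and its day 3 ratios were -1.75, -1.42 and -0.85, the last from replicate 3. Without this replicate its difference was 0.22 (limma adjusted p = 0.00999), and with the log ratio of the scanner software the direction turned, to -0.45 (limma adjusted p = 0.00153). For PAS_chr1-3_0004 the value was 0.16 without replicate 3 of day 3 (limma adjusted p = 0.111), and without replicate 1 or 3 of the chemostat 0.025 it was 0.20 and 0.18 (limma adjusted p = 0.0566 and 0.0895). Over 39 alternatives the adjusted p ran from 7.14e-07 to 0.362 for PAS_chr3_0517 and from 0.0107 to 0.311 for PAS_chr1-3_0004.

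Of the rest of the 12 lowest on day 1, PAS_chr1-3_0052 had a difference of 0.33 at this step (limma adjusted p = 0.231). Its direction rested on single day 3 replicates, with -0.10 without replicate 3 (limma adjusted p = 0.658) and 0.64 without replicate 1 (limma adjusted p = 0.0232). The other 6 fell, each without overlap between the groups. Overlap was not counted over all probes, so its absence sets none of them apart. PAS_chr3_0890 had log2 ratios of -2.81, -2.85 and -2.79 on day 3, against -1.23, -1.40 and -1.16 in the chemostat 0.025, a difference of -1.55 ± 0.07 (limma adjusted p = 1.41e-14). PAS_chr1-3_0229 had differences from the chemostat 0.1 of only -0.34 in the chemostat 0.025 but -1.90 on day 1, and its difference between day 3 and the chemostat 0.025 was -1.40 ± 0.12 (limma adjusted p = 4.62e-10). For both, most of the day 1 fall lay between the slowest chemostat and the retentostat. PAS_c034_0013, PAS_chr1-4_0389 and PAS_chr2-1_0580 had differences of -1.10, -1.24 and -1.34, and they were also lower in the chemostat 0.025 than at 0.075, by 0.83, 0.72 and 0.90 on the log2 scale, and on day 23 than on day 3, by 0.69, 0.81 and 0.54. For PAS_c034_0013, whose day 3 ratios were -2.18, -1.99 and -1.29, day 23 minus day 3 was -0.43 without replicate 3 of day 3 (limma adjusted p = 0.00211). PAS_chr3_0284 had the smallest of these differences at -0.42 ± 0.08 (limma adjusted p = 2.87e-05), after -0.98 between the chemostats.

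**Figure D3:**
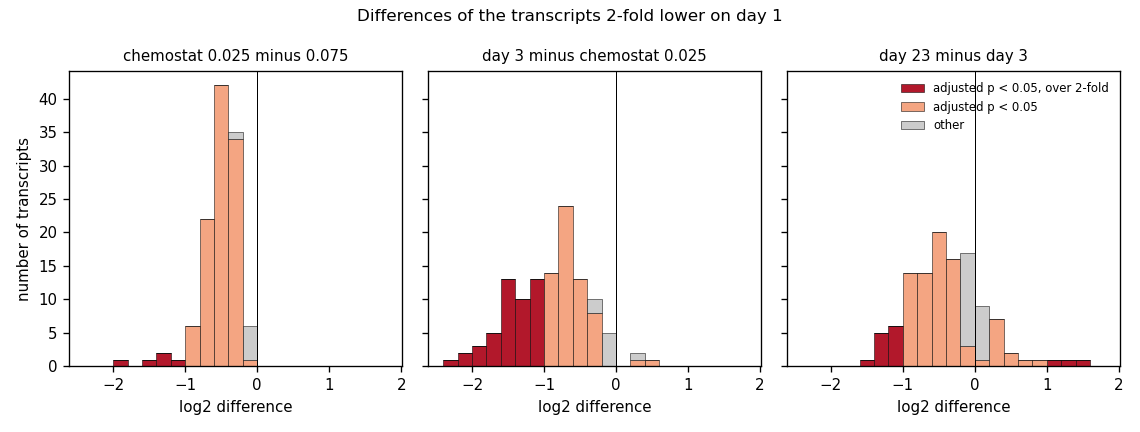
Histograms of the log2 differences of the 116 transcripts in the 3 tested comparisons, coloured by the limma call. In the left panel all 116 lie below 0, in the middle panel 113 do, with 47 called over 2-fold lower, and in the right panel the distribution spreads to both sides, with 12 called over 2-fold lower and 3 over 2-fold higher.

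The third test followed the transcripts inside the retentostat, with day 23 against day 3, and shares the day 3 samples with the second. The paper describes duplicate retentostat runs sampled over time, so both days came from the same cultures. The labels do not say which replicates share a culture, and the model treats the days as independent. In this test most of the group was lower on day 23, and a smaller part was higher. The median difference was -0.43, against -0.01 over all probes. Of the group, 93 transcripts were lower and 23 higher, beside 2738 and 2633 of all 5371 probes. At an adjusted p below 0.05, 79 were lower, beside 32.8% of all probes, and 15 were higher, beside 30.3%. Over 2-fold, 12 were lower, beside 1.43% of all probes, and 3 were higher, beside 0.577%. No slide held arrays of both days, and with slide as a term the counts were 14 lower and 3 higher.

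Among the transcripts that went on falling, PAS_chr2-2_0094 changed most. It had log2 ratios of -3.21, -3.20 and -3.28 on day 23, against -1.92, -1.77 and -1.52 on day 3, a difference of -1.49 ± 0.10 (SE, n = 3 each, limma adjusted p = 2.63e-11), or 2.81-fold. PAS_chr3_0599 had -3.21, -3.07 and -3.09 on day 23, against -1.89, -1.68 and -1.75 on day 3, a difference of -1.35 ± 0.06 (limma adjusted p = 1.01e-13). PAS_chr1-4_0203 had -2.42, -2.41 and -2.52 on day 23, against -1.29, -0.93 and -1.12 on day 3, a difference of -1.34 ± 0.09 (limma adjusted p = 2.55e-11). All 3 had day 1 differences of only -1.24 to -1.10 from the chemostat 0.1, and by day 23 they were at -3.72, -3.31 and -3.35. PAS_chr2-2_0113, the lowest on day 1, also went on falling, with -4.09, -4.11 and -4.34 on day 23 and a difference from day 3 of -0.80 ± 0.11 (limma adjusted p = 9.33e-07). PAS_chr4_0307 fell too, to -5.28, -5.00 and -5.19 on day 23, a difference of -1.17 ± 0.21 (limma adjusted p = 4.8e-05).

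The 3 transcripts that rose more than 2-fold inside the retentostat had been 2-fold lower on day 1 but not at the end. PAS_chr1-3_0052 had log2 ratios of -2.53, -2.18 and -1.79 on day 23, against -4.30, -3.95 and -2.82 on day 3. The groups did not overlap, but replicate 3 of day 3 stood well above the other two. The difference was 1.52 ± 0.25 (SE, n = 3 each, limma adjusted p = 1.16e-05), or 2.88-fold, and 1.96 without that replicate (limma adjusted p = 1.77e-08). Over 39 alternatives the adjusted p ran from 1.36e-11 to 0.109, the highest with the processed table as deposited, in which some columns run against their arrays. PAS_chr2-1_0270 had 2.74, 2.50 and 2.20 on day 23, against 1.24, 1.55 and 0.89 on day 3, a difference of 1.25 ± 0.14 (limma adjusted p = 6.08e-08). PAS_chr1-3_0004 had 0.62, 0.60 and 0.60 on day 23, against -0.68, -0.58 and -0.48 on day 3, a difference of 1.19 ± 0.08 (limma adjusted p = 1.98e-11). In neither of these 2 did the groups overlap. For all 3 transcripts, overlap was not counted over all probes. Relative to the chemostat 0.1 the 3 transcripts, in this order, stood at -2.30, -1.01 and -0.76 on day 5. Their day 16 values were -0.76, -0.22 and 0.10, and those of day 23 were -0.21, -0.02 and 0.36.

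These 3 were among 16 transcripts that were called lower in 1 of the tested comparisons and higher in another at an adjusted p below 0.05. For 12 of them the pattern was lower in the chemostat 0.025 than at 0.075, lower again on day 3 and higher on day 23 than on day 3. PAS_chr2-1_0270 belonged to these 12 only narrowly, since its difference between day 3 and the chemostat 0.025 was -0.33 (limma adjusted p = 0.0404). Its groups overlapped, with 1.24, 1.55 and 0.89 on day 3, against 1.55, 1.50 and 1.62 in the chemostat 0.025. The call was lost without any one replicate of the chemostat 0.025 and without replicate 1 or 3 of day 3, at -0.16 without replicate 3 of day 3 (limma adjusted p = 0.31), and over 39 alternatives the adjusted p ran from 0.0038 to 0.622. PAS_chr3_0516 also belonged to these 12, with -1.62, -1.45 and -1.38 on day 23, against -2.46, -1.89 and -1.47 on day 3, so that its groups overlapped. Its difference of 0.46 ± 0.14 (limma adjusted p = 0.00628) did not pass the threshold without replicate 1 of day 3, at 0.195 (limma adjusted p = 0.088), was 0.69 without replicate 3 of day 3 (limma adjusted p = 1.47e-05), and over 39 alternatives the adjusted p ran from 1.72e-08 to 0.11. PAS_chr3_0284 rose by 0.39 on the log2 scale between these days (limma adjusted p = 0.000112), and by 0.25 without replicate 1 of day 3 (limma adjusted p = 0.000567). Day 3 minus the chemostat 0.025 and day 23 minus day 3 share the day 3 samples, with opposite signs. Noise in those samples therefore favours opposite calls. The chemostat 0.025 samples are likewise shared with the comparison to the chemostat 0.075. Opposite calls and patterns were not counted over all probes, so these counts do not set the 116 apart. The most frequent pattern was lower in all 3 comparisons, with 71 of the 116 transcripts. PAS_chr3_0876 followed neither pattern, with 0.12 ± 0.06 for day 23 minus day 3 (limma adjusted p = 0.0936), and 0.17 without replicate 3 of day 23 (limma adjusted p = 0.0319).

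**Figure D4:**
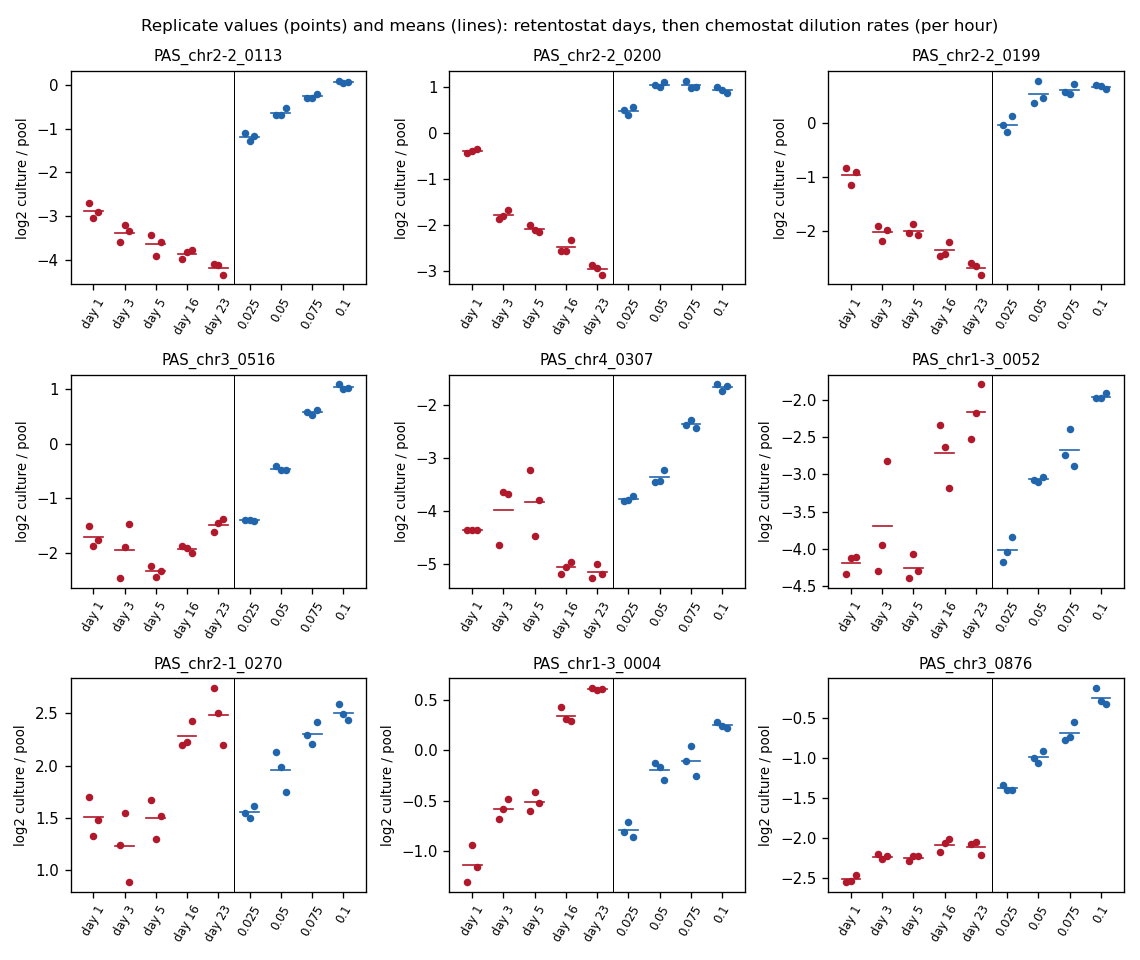
Log2 ratio of culture over pool of 9 transcripts, with the 3 replicates as points and their mean as a line, for the retentostat days (red) and then the chemostat dilution rates per hour (blue). PAS_chr2-2_0113 runs down to between -4.34 and -4.09 on day 23, while PAS_chr1-3_0004 returns to between 0.60 and 0.62.

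Set beside the 116, the 338 PAS_ probes that were not 2-fold lower on day 1 but were so on day 23 had smaller median differences in the first 2 tests. Neither test uses samples of either rule. The 116 were chosen for reaching the limit by day 1 and the 338 for not reaching it, so smaller early differences are partly built in. Between the chemostats 0.025 and 0.075 the median was -0.46 for the 116 and -0.26 for the 338, and 94.8% and 65.7% were lower at an adjusted p below 0.05. On day 3 against the chemostat 0.025 the medians were -0.81 and -0.59. At an adjusted p below 0.05, 91.4% and 91.7% were lower, and over 2-fold 40.5% and 11.2%. The difference between these sets of transcripts was not tested.

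Some of the 116 genes lie next to each other. In the gene table of GS115, 21 of the 112 tags found (18.8%) had another of them as direct neighbour, in 11 pairs, against 201 of 4928 (4.08%) of the other array genes that had one of them as neighbour. These shares are a description without a test. The neighbours PAS_chr2-2_0199 and PAS_chr2-2_0200 followed much the same course. PAS_chr2-2_0199 had log2 ratios of -1.91, -2.18 and -1.98 on day 3, against -0.04, -0.18 and 0.12 in the chemostat 0.025, a difference of -1.99 ± 0.10 (limma adjusted p = 3.87e-14), beside -2.26 for PAS_chr2-2_0200. On day 23 they were at -3.36 and -3.91 relative to the chemostat 0.1. PAS_chr4_0742 and PAS_chr4_0743 were also close, with -0.72 and -1.04 for day 3 minus the chemostat 0.025 and -0.52 and -0.46 for day 23 minus day 3.

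Other neighbours parted. PAS_chr3_0516 and PAS_chr3_0517 had differences of -1.97 and -1.203 between the chemostats 0.025 and 0.075, both called, but PAS_chr3_0516 was lower and PAS_chr3_0517 higher on day 3, with the limits given above. The pair PAS_chr1-3_0004 and PAS_chr1-3_0005, named after the values were seen, had day 1 differences of -1.38 and -1.40 from the chemostat 0.1. On day 23 they were at 0.36 and -1.17, and for day 23 minus day 3 they had 1.19 and 0.15. PAS_chr1-3_0005 was well above background on 1 of its 6 day 3 arrays. By the chromosome in their tag, 25 of 1451 tags on chromosome 1 (1.72%), 41 of 1333 on chromosome 2 (3.08%), 22 of 1178 on chromosome 3 (1.87%) and 21 of 946 on chromosome 4 (2.22%) were among the 116, and 7 of 169 with other tags (4.14%).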

How the data were processed

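The authors hybridized labeled RNA with a reference pool on 2-color Agilent arrays and deposited, per array, the scanner output with the median signal intensity and local background intensity of 12958 spots and a log10 ratio of the dyes (Feature Extraction 11.5.1.1). They also deposited a table of processed log2 ratios, in which 18 of 54 columns ran against their own array (r between -0.974 and -0.939), so the scanner intensities were used. The genome build behind the probes is not given in the sources used here.

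Signals were background corrected (normexp, offset 50) and LOESS normalized with limma 3.58.1 in R 4.3.3, as the methods of the study state. No Aquantile step was applied. Control spots (536 per array) and outlier spots as marked by the scanner software (0.676%) were excluded. Ratios were turned to culture over pool by the labelled dyes, spots of a probe and the dye pair of a replicate were averaged, and 27 values per probe entered 1 linear model of 9 conditions with empirical Bayes statistics. A call required a Benjamini-Hochberg adjusted p below 0.05 and, where stated, over 2-fold. No low signals were filtered. The number of arrays limits the precision. The procedure was tested on simulated data.

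The members and lists were chosen with earlier results of these data known. Transcripts named were the 12 lowest on day 1, the 3 largest falls and rises called in each test, the 3 nearest each side of the limit, 5 with opposite calls, and 3 neighbouring pairs (those with the lowest sum on day 1). Planned lists by gene product and promoter motifs were not used here, since no product text or promoter was at hand. The deviations of same-numbered replicates of day 3 and the chemostat 0.025 correlated with r = 0.402, 0.249 and 0.206, and those of the other compared groups between 0.012 and 0.277, so every same-numbered pair of the second test was above 0.1. This hint at pairs comes only from these values. Over all conditions the mean r was 0.016 for equal and -0.009 for different numbers, with a duplicate correlation of -0.201. All values given come from the model without pairs, and a fit with the replicate number as a block was an alternative.

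Alternatives covered background correction, normalization, source of the ratio, outlier and dim spots, single arrays with slide, a replicate block, fewer groups, call rules, other limits and each replicate left out.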

Additional observations from a re-analysis of the deposited data

How the results depend on the processing

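The direction of the medians of all 116 transcripts was the same in each test under all alternatives except the processed table as deposited. Leaving out single replicates gave 5 to 6 transcripts lower over 2-fold in the first test, 42 to 51 in the second and 10 to 13 in the third, by adjusted p alone 103 to 111, 103 to 110 and 71 to 81, medians of -0.487 to -0.453, -0.887 to -0.798 and -0.494 to -0.358, and 99 to 132 transcripts at the limit. The medians relative to the chemostat 0.1 moved by less than the spread of the replicates except in the chemostat 0.075, at -0.143 without replicate 1 of the chemostat 0.1, against -0.154 with all replicates. With the replicate block, 5, 47 and 12 transcripts were lower over 2-fold, 111, 107 and 80 by adjusted p alone, and no call of a named transcript changed. A test against a 2-fold change left 1, 29 and 2 lower and 0 higher on day 23. The scanner software ratio gave a median of -1.017 in the second test, and for PAS_chr3_0517 differences of -0.45 in the second and 0.12 in the third. At a limit of -0.8 (241 transcripts), 223, 217 and 145 were lower by adjusted p alone, with medians of -0.389 in the first and -0.305 in the third test. At a limit of -1.5 (22 transcripts), 22, 18 and 15 were lower by adjusted p alone, 12 over 2-fold in the second and 2 in the third test, with medians of -0.731 in the first and -1.068 in the second. These counts follow the number of transcripts chosen.

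The processed table as deposited, with columns of both directions (column medians of -0.0258 to 0.0338), gave 277 transcripts at the limit, 2 of them among the 116. For the 116 it gave 0, 0 and 82 lower over 2-fold, 0 and 0 by adjusted p alone in the first 2 tests, and medians of -0.354, 0.76 and -2.187. Named differences turned to 0.39 (PAS_chr1-4_0203), 0.80 (PAS_chr2-1_0270), 0.20 (PAS_chr2-2_0200) in the first test, to 1.38 (PAS_c034_0013), 1.74 (PAS_chr1-3_0229), 0.56 (PAS_chr1-4_0389), 1.16 (PAS_chr2-1_0580), 0.31 (PAS_chr2-2_0064), 0.72 (PAS_chr2-2_0094), 2.21 (PAS_chr2-2_0113), 0.84 (PAS_chr2-2_0199), 0.074 (PAS_chr2-2_0200), 1.24 (PAS_chr3_0284), 1.99 (PAS_chr3_0516), 0.72 (PAS_chr3_0599), 2.22 (PAS_chr3_0876), 2.26 (PAS_chr3_0890), 0.99 (PAS_chr4_0610), 1.26 (PAS_chr4_0742), 3.61 (PAS_chr4_0743) in the second and to -3.61 (PAS_chr1-3_0052), -1.29 (PAS_chr3_0284), -2.09 (PAS_chr3_0516) in the third. With the 18 columns turned, an alternative chosen after seeing the data, 6, 52 and 10 were lower over 2-fold, with 120 transcripts at the limit. Which transform and centring the table holds is not stated with it. All 116 passed the filter on dim probes, and 112 were well above background on all arrays. Of 2808 values of named transcripts under alternatives, 2706 were counted as unchanged. That count includes values of the other sign where the main difference had not been called, whatever their own adjusted p. For PAS_chr1-3_0052 in the second test the limma adjusted p ran from 0.00381 to 0.75 over 39 alternatives.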
